A study of Mus musculus with 40 samples.

Results

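A set of 10 genes that mark or restrain cell division was followed in the aortas and kidneys of mice with and without endothelial EGFR: Mki67, Top2a, Cdk1, Ccna2, Ccnb1, Birc5, Aurkb, Cdc20, Mcm5 and Cdkn1a. They were taken by symbol from the gene column of both count tables, and all 10 were found among the 55335 genes listed for aortas and the 55382 genes listed for kidneys. Mice of the C57BL/6 background, EC-EGFR-KO or EC-EGFR-WT, received a standard diet with 10% of its energy from fat (SD in the sample labels, written SFD here to keep it apart from the standard deviation) or a high fat diet (HFD, 60%), starting at 6 weeks of age and lasting 18 weeks. KO mice carried floxed Egfr alleles and the Tek-cre transgene B6.Cg-Tg(Tek-cre)1Ywa, WT mice carried the same Cre without floxed alleles, and the Tek promoter also drives recombination in blood cell precursors. Aortas and kidneys, cleared of adjacent tissue, were sequenced, each from 5 mice per group. This gave 4 groups per tissue (WT SFD, WT HFD, KO SFD and KO HFD) and 40 libraries in all. The labels do not say whether the aortas and kidneys came from the same mice. The comparisons ask whether diet, loss of endothelial EGFR, or both together move the transcripts of the division machinery in either organ.

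As background, a dividing cell copies its DNA in S phase and separates the copies in mitosis, and most of the proteins that do this are made from transcripts that rise only in cycling cells. Mcm5 is a subunit of the helicase that opens replication origins, and Ccna2 is the cyclin that drives S phase and entry into G2. Top2a untangles DNA before chromosomes separate, and Mki67 encodes Ki-67, a coat protein of mitotic chromosomes that is used as a stain for cycling cells. Cdk1 with its cyclin Ccnb1 starts mitosis, Aurkb and Birc5 (survivin) belong to the complex that corrects chromosome attachment, and Cdc20 activates the ubiquitin ligase that ends metaphase. Cdkn1a encodes p21, an inhibitor of cyclin-dependent kinases and a target of p53, and it works against the other members. The endothelium, the smooth muscle of the adult aorta and the tubules of the adult kidney divide rarely, and transcripts of the division machinery are usually low in such tissues.

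The start sites of most of these genes carry short sequence elements through which transcription is tied to the cycle: the CCAAT box bound by NF-Y, the cell cycle genes homology region (CHR) read by the DREAM and MMB complexes, and E2F elements. RefSeq start-site windows (GRCm38.p6, 250 bases before to 50 bases after the start, 300 bases in all) were found for 8 of the 10 members by symbol, with 2 windows for Cdkn1a. Ccna2 and Aurkb had none in the table used. Both strands were searched for the CHR core TTTGAA, for the box CCAAT itself, and for the E2F letters TTTCGCGC and the variants TTTCCCGC and TTTGGCGC and also TTTGCCGC. The windows below are shown because they belong to Mki67, Top2a and Cdk1, 3 of the 4 members (with Cdc20) that hold both CHR and CCAAT letters and were highest in the same aorta, and to Mcm5, the member that was called for diet in kidneys. They read 5′ to 3′ on the gene's strand, and capitals mark the matched letters, in reverse complement where the match lies on the other strand.
Mki67, chr7:135716330-135716629, minus strand: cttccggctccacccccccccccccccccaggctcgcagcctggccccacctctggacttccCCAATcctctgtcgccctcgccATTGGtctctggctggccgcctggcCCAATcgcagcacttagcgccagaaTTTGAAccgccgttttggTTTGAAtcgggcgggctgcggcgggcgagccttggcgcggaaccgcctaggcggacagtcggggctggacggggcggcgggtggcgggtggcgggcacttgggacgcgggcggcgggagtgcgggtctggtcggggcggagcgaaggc
Top2a, chr11:99024140-99024439, minus strand: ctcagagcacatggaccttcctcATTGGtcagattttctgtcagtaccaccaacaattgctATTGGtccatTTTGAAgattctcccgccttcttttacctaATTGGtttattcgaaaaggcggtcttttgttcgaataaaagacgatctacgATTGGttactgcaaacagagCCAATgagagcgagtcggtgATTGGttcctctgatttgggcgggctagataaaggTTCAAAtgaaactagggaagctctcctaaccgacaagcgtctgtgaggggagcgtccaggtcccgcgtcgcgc
Cdk1, chr10:69352863-69353162, minus strand: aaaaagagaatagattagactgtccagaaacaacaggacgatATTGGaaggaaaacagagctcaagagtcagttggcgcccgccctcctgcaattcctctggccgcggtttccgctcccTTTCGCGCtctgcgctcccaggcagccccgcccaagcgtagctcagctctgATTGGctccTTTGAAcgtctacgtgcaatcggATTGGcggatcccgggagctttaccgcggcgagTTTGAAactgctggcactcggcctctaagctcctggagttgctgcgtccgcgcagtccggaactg
Mcm5, chr8:75109259-75109558, plus strand: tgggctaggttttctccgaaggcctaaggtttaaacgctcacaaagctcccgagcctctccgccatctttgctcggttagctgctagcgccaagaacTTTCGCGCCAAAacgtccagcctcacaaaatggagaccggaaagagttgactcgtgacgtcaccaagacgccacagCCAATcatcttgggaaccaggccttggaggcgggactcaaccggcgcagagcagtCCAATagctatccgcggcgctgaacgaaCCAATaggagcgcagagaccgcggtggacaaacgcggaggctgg

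CHR letters were in the windows of 4 of the 8 members (Mki67, Top2a, Cdk1 and Cdc20), where 17.9% of the 32851 windows of the whole table held them. CCAAT was in those of 6 members (the same genes with Ccnb1 and Mcm5) and in 37.4% of all windows. The E2F letters were in those of Cdk1 and Mcm5 and in 2.26% of all windows; in Mcm5 the 2 matches overlap, at 153 and 149 bases before the start on opposite strands. Top2a held 6 CCAAT boxes, Mki67 and Cdk1 held 3 each, and both windows of Cdkn1a and that of Birc5 held none of the letters searched. A match is a description of the sequence and no evidence of binding, and no binding was measured here.

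Total counts per library ranged from 17520161 to 36452741 in aortas and from 19643033 to 48833447 in kidneys, and counts are given as FPM, which here means TMM-scaled CPM. The aorta libraries R-1 (WT SFD) and R-12 (KO SFD) were closer to each other than counting noise alone would make them (a median chi-square of 0.02795 per gene, against 1.497 for the next closest pair), as were the kidney libraries a1 (KO HFD) and a12 (WT HFD; 0.02818 against 1.526). Each of these pairs joins different groups. Mcm5 for HFD averaged over genotype in kidneys and Top2a under HFD in aortas are given with and without them. The correlations among the proliferation genes are too, and for the gene lists the calls lost without them are named. Other member results are printed with these libraries included. Smooth muscle markers summed to between 24903 and 40220 FPM in aortas and to between 71.6 and 114 FPM in kidneys, and kidney tubule markers to between 10216 and 12180 FPM in kidneys and to at most 2.28 FPM in aortas, so each tissue carried its own markers. The targeted gene Egfr, which many other cells of both organs express and of which the deletion removes the first exon, averaged 44.5 ± 6.58 FPM in KO aortas under HFD, 44.0 ± 5.7 in KO aortas under SFD, 40.5 ± 6.36 and 39.6 ± 8.93 in the matching WT aortas (SD, n = 5 each). In the kidney groups it averaged between 40.5 and 56.3 FPM, so counts over the whole gene do not check the genotype labels. Genes on chromosomes 9, MT, X and Y and on the distal part of chromosome 8 stood at 0 in every library, and none of the 10 members lies there.

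All 10 members passed the expression filter in both tissues, among 15122 genes tested in aortas and 15943 in kidneys. A gene was called when its adjusted p was below 0.05 in edgeR's quasi-likelihood test with Benjamini-Hochberg adjustment, the source of the p-values given here except where DESeq2 is named. The 9 proliferation genes were read with few counts. Raw counts lay between 3 and 173 per library in aortas, with 19 of 180 values under 10 reads, and between 8 and 274 in kidneys, with 1 of 180 values under 10 reads. Over the 20 aortas the coefficient of variation of these 9 genes was highest for Aurkb (63.5%), Birc5 (52.5%), Cdk1 (40.3%) and Ccnb1 (38.6%), against 20.2% for Mcm5 and 22.6% for Cdc20. The use of strand in counting is not given in the sources used here, so reads from the 510 bases of exon that Ccna2 shares with Exosc9 on the opposite strand, the 53 bases of Cdc20 shared with Elovl1 and the 273 bases of Cdkn1a shared with AC167363.2 cannot be told apart from reads of these neighbours; the same holds for 122 bases of Top2a shared with the small RNA gene Gm23451. In whole organs, fewer cells of a type and less RNA per cell cannot be told apart either.

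Scaled by exon length (FPKM on the scale of the joint fit, mean ± SD over 20 libraries), Cdkn1a was the highest of the 10 in aortas at 14.1 ± 6.08, followed by Mcm5 at 1.33 ± 0.272 and Cdc20 at 1.25 ± 0.285. Ccna2 came next at 0.461 ± 0.128, and then came Birc5 (0.286 ± 0.151), Top2a (0.28 ± 0.0728), Mki67 (0.265 ± 0.0928), Cdk1 (0.197 ± 0.0801), Aurkb (0.159 ± 0.102) and Ccnb1 (0.139 ± 0.0535). The steps from Cdkn1a to Mcm5, from Cdc20 to Ccna2 and from Ccna2 to Birc5 were larger than the larger SD of the neighbours, and the other steps were not. In kidneys the order was Cdkn1a (2.51 ± 1.68), Cdc20 (1.4 ± 0.25), Mcm5 (1.26 ± 0.233), Birc5 (0.529 ± 0.123), Ccna2 (0.524 ± 0.125), Mki67 (0.398 ± 0.0671), Top2a (0.373 ± 0.0718), Cdk1 (0.33 ± 0.0905), Ccnb1 (0.242 ± 0.0762) and Aurkb (0.229 ± 0.0536). There the steps after Mcm5 and after Ccna2 were larger than the spread, so the helicase subunit and the mitotic exit factor stood above the kinases and cyclins of mitosis in both organs.

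**Figure D1:**
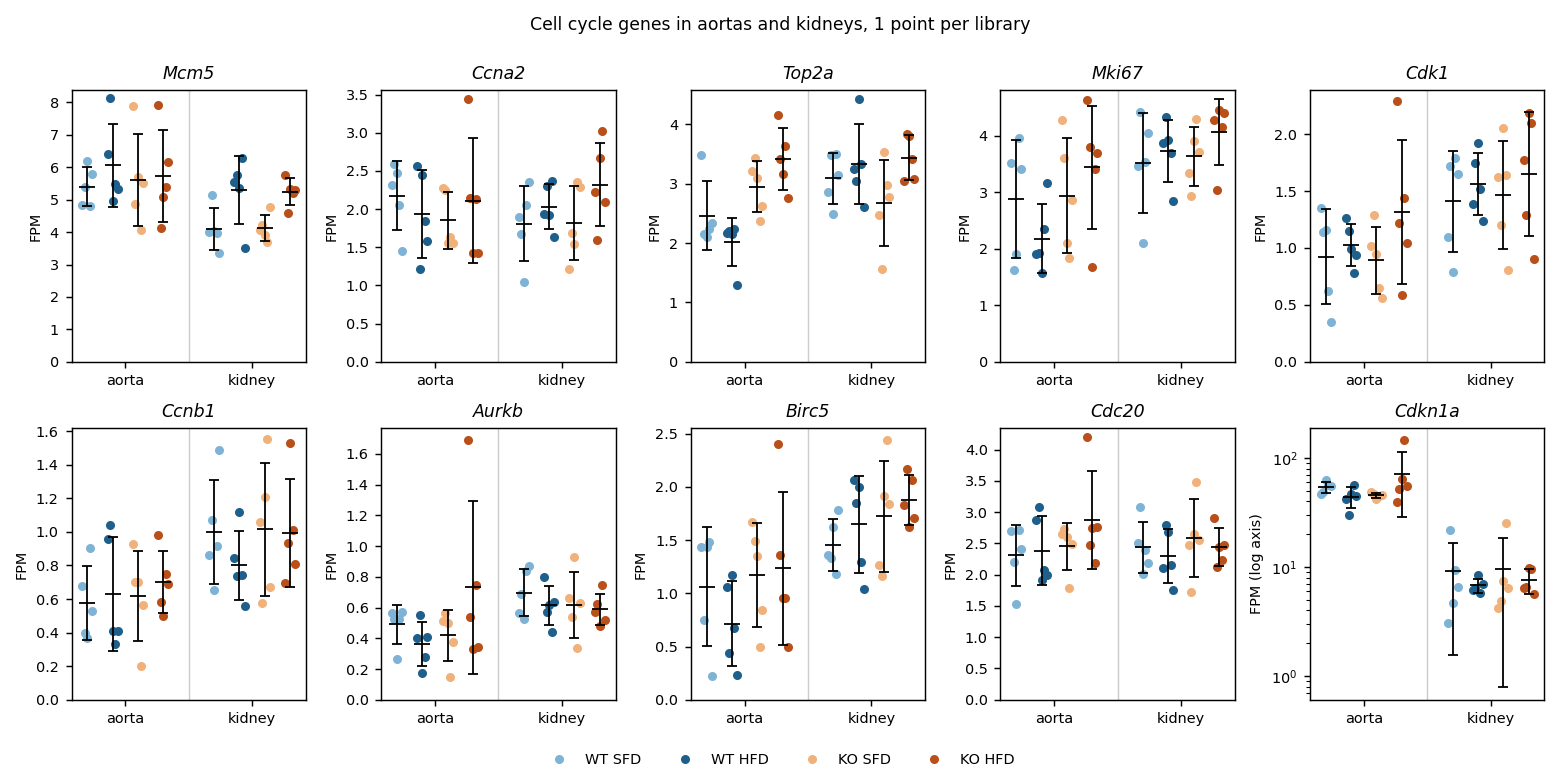
Level of each of the 10 genes in FPM (y axis, log axis for Cdkn1a) in every aorta and kidney library, 1 point per library, with the mean (long bar) and SD (whiskers) of each group of 5 and colours for genotype and diet. The KO HFD aortas stand above the WT HFD aortas for Top2a (2.76 to 4.15 against 1.29 to 2.24 FPM), most kidneys under HFD stand above those under SFD for Mcm5, and single libraries stand far from their group for Aurkb and Cdkn1a in aortas.

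Between the tissues, 6 of the 9 proliferation genes were lower in aortas than in kidneys and Cdkn1a was higher. In the joint fit of 40 libraries the log2 fold change of aorta against kidney was -0.60 for Mki67 (SE 0.126, adjusted p = 4.37e-05), -0.43 for Top2a (SE 0.0923, adjusted p = 6.37e-05), -0.76 for Cdk1 (SE 0.163, adjusted p = 6.03e-05), -0.78 for Ccnb1 (SE 0.172, adjusted p = 8.75e-05), -0.90 for Birc5 (SE 0.194, adjusted p = 6.18e-05) and -0.57 for Aurkb (SE 0.179, adjusted p = 0.00401) by edgeR. Ccna2 at -0.18 (SE 0.123, adjusted p = 0.168), Cdc20 at -0.17 (SE 0.0977, adjusted p = 0.108) and Mcm5 at 0.09 (SE 0.086, adjusted p = 0.33) did not pass. Cdkn1a was higher in aortas by 2.48 on the log2 scale (SE 0.203, adjusted p = 6.61e-14). Of all 17514 genes tested between the tissues 86.5% were called, so 7 called members of 10 is no more than the background. In the SFD groups alone the difference of Top2a was -0.29 (adjusted p = 0.0682). The tissues were counted into separate tables, and tissue and table cannot be told apart. The joint fit treated all libraries as independent, and any pairing of aortas and kidneys by mouse is unknown.

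Mcm5 was the only member called for diet within a tissue. In kidneys under SFD it had 3.99, 5.15, 4.02, 3.96 and 3.35 FPM in WT (a16 to a20) and 4.05, 4.21, 3.91, 3.7 and 4.76 FPM in KO (a6 to a10). Under HFD it had 5.56, 5.77, 5.35, 6.29 and 3.52 FPM in WT (a11 to a15) and 5.75, 4.6, 5.34, 5.21 and 5.31 FPM in KO (a1 to a5). Of the 10 HFD kidneys, 9 lay above the SFD median of 4.0 FPM and 8 lay above the highest SFD kidney, while a15 (3.52 FPM) lay among the lowest, so the diets overlapped through a15, a2 and a17. The group means were 4.1 ± 0.654 (WT SFD), 5.3 ± 1.05 (WT HFD), 4.13 ± 0.4 (KO SFD) and 5.24 ± 0.413 FPM (KO HFD; SD, n = 5 each).

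The log2 fold change of Mcm5 for HFD averaged over genotype was 0.36 (SE 0.102, 95% interval 0.15 to 0.57, adjusted p = 0.0189 by edgeR). Within WT it was 0.37 (SE 0.144, adjusted p = 0.146) and within KO 0.35 (SE 0.145, adjusted p = 0.18), where 6.71% and 6.34% of all genes tested were called. Averaged over genotype, 16.4% of all genes were called for diet in kidneys, 1228 higher and 1387 lower, and 1 called member of 10 is not above that share. With a1 and a12, the near-identical pair, left out, the value was 0.33 (0.325 before rounding, adjusted p = 0.0574) and was no longer called. Without a15 the effect in WT was 0.49 (adjusted p = 0.0246). Of the 5 macrophage markers 4 were called higher and 1 lower under HFD in kidneys, with summed levels of 108 to 157 FPM in WT HFD and 113 to 153 in KO HFD against 89.7 to 138 in WT SFD and 101 to 129 in KO SFD, and their part in the Mcm5 result was not tested. In aortas Mcm5 was not called for diet, with 4.07 to 7.9 FPM under SFD (median 5.45) and 4.14 to 8.14 FPM under HFD (median 5.44).

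The groups of the other proliferation genes overlapped in kidneys. Mki67 averaged 3.51 ± 0.884 FPM in WT under SFD, 3.73 ± 0.554 in WT under HFD, 3.64 ± 0.521 in KO under SFD and 4.07 ± 0.584 in KO under HFD. Top2a averaged 3.1 ± 0.427, 3.33 ± 0.674, 2.67 ± 0.727 and 3.44 ± 0.374 FPM in the same order of groups. Ccna2 averaged 1.81 ± 0.491, 2.03 ± 0.299, 1.82 ± 0.491 and 2.32 ± 0.546 FPM. For these 3 genes the HFD groups had the higher mean in both genotypes, and no such difference reached an unadjusted p of 0.05. Cdk1 averaged 1.41 ± 0.442, 1.56 ± 0.275, 1.46 ± 0.474 and 1.65 ± 0.547 FPM, and Birc5 averaged 1.45 ± 0.24, 1.65 ± 0.457, 1.72 ± 0.521 and 1.88 ± 0.233 FPM. Both genes, which act in mitosis, likewise had the higher mean under HFD in both genotypes, without an unadjusted p under 0.05. Ccnb1 averaged 0.999 ± 0.312, 0.799 ± 0.204, 1.02 ± 0.4 and 0.994 ± 0.323 FPM. Aurkb averaged 0.697 ± 0.155, 0.613 ± 0.129, 0.618 ± 0.216 and 0.587 ± 0.102 FPM, and Cdc20 averaged 2.44 ± 0.411, 2.3 ± 0.436, 2.58 ± 0.623 and 2.44 ± 0.302 FPM (SD, n = 5 each). The last 3 genes (Ccnb1, Aurkb and Cdc20) were level or slightly lower under HFD, again within their spread.

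None of the 10 was called for genotype in kidneys. The log2 fold changes of KO against WT ran from -0.21 (Top2a) to 0.25 (Birc5) under SFD and from -0.06 (Aurkb) to 0.31 (Ccnb1) under HFD, and the interaction of diet and genotype ran from -0.06 (Birc5) to 0.28 (Ccnb1). None of the 10 had an unadjusted p under 0.05 in any of these comparisons or in KO against WT averaged over diet (-0.12 for Aurkb to 0.21 for Birc5). Over all genes the called shares were 0% under SFD (426 genes at an unadjusted p under 0.05, 0 by DESeq2), 0% under HFD (546 genes, 0 by DESeq2), 0% for the interaction (285 genes, 0 by DESeq2) and 0% averaged over diet (768 genes, 1 by DESeq2). These counts do not show that the groups are alike, and the plot of diet and genotype effects gives the 95% interval of each fold change.

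In aortas, the effect of genotype under HFD was positive for 9 of the 10 members, with a median log2 fold change of 0.50 beside 0.01 over all genes tested, and none was called. The proliferation genes varied together across aortas, and R-16, a KO HFD aorta, was highest for 7 of these 9 genes. The estimates above 0 are thus not separate results. Under HFD Top2a had 4.15, 3.41, 3.16, 3.63 and 2.76 FPM in KO (R-16 to R-20) and 2.17, 2.2, 2.16, 2.24 and 1.29 FPM in WT (R-6 to R-10), so every KO HFD aorta lay above every WT HFD aorta. Under SFD it had 3.21, 3.43, 3.1, 2.38 and 2.63 FPM in KO (R-11 to R-15) and 3.49, 2.15, 2.11, 2.24 and 2.33 FPM in WT (R-1 to R-5), and these groups overlapped, with R-1 highest. The means were 3.42 ± 0.518 (KO HFD), 2.01 ± 0.404 (WT HFD), 2.95 ± 0.431 (KO SFD) and 2.46 ± 0.578 FPM (WT SFD; SD, n = 5 each), and the raw counts behind them ran from 22 to 124 per library.

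The log2 fold change of Top2a for KO against WT under HFD was 0.77 (SE 0.196), rank 33 of 15122 genes by its p, with an adjusted p of 0.416 in edgeR and 0.0864 in DESeq2. Averaged over diet it was 0.51 (SE 0.137, adjusted p = 0.343). Over all genes 0% were called under HFD (884 at an unadjusted p under 0.05, 25 called by DESeq2) and 0.0198% averaged over diet, while 51 of 15122 genes, 0.337%, had all KO HFD libraries above all WT HFD libraries; of the members only Top2a did. The difference under HFD was 0.69 without R-16 (adjusted p = 0.52), 0.64 without R-10, the lowest WT library, and 0.76 without R-1 and R-12 (adjusted p = 0.131). With a score of lymphoid markers as covariate it was 0.70 (adjusted p = 0.225).

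A further 3 members had an unadjusted p under 0.05 in that comparison. Aurkb had 1.69, 0.536, 0.333, 0.747 and 0.346 FPM in KO HFD and 0.403, 0.55, 0.175, 0.279 and 0.41 FPM in WT HFD, a log2 fold change of 0.98 (SE 0.455, adjusted p = 0.843 by edgeR). Without R-16, the KO HFD aorta with 1.69 FPM, it was 0.41 (adjusted p = 0.689). Mki67 had 4.64, 3.8, 1.67, 3.41 and 3.7 FPM in KO HFD and 1.91, 1.92, 1.57, 2.35 and 3.16 FPM in WT HFD, and the groups overlapped through R-18. Its log2 fold change was 0.65 (SE 0.312, adjusted p = 0.847), and 0.52 without R-16 (adjusted p = 0.627). Under SFD Mki67 had 4.28, 3.6, 2.1, 1.84 and 2.87 FPM in KO and 3.52, 1.62, 1.9, 3.96 and 3.42 FPM in WT, and the genotypes overlapped. The third gene was the inhibitor Cdkn1a, whose values follow below.

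The remaining members in aortas had wide and overlapping groups. Mcm5 averaged 5.41 ± 0.597 FPM in WT under SFD, 6.06 ± 1.28 in WT under HFD, 5.61 ± 1.43 in KO under SFD and 5.74 ± 1.42 in KO under HFD. Ccna2 averaged 2.18 ± 0.455, 1.93 ± 0.576, 1.85 ± 0.377 and 2.11 ± 0.825 FPM in that order, and Cdk1 averaged 0.925 ± 0.42, 1.02 ± 0.187, 0.895 ± 0.296 and 1.31 ± 0.632 FPM. For Cdk1 R-16 had 2.29 FPM, the highest of the 20 aortas. Ccnb1 averaged 0.575 ± 0.221, 0.631 ± 0.34, 0.619 ± 0.269 and 0.701 ± 0.184 FPM. Birc5 averaged 1.06 ± 0.56, 0.714 ± 0.397, 1.17 ± 0.487 and 1.24 ± 0.722 FPM, and Cdc20 averaged 2.31 ± 0.486, 2.39 ± 0.544, 2.45 ± 0.381 and 2.88 ± 0.779 FPM (SD, n = 5 each). Birc5 and Cdc20 too had their highest aorta in R-16, at 2.4 and 4.21 FPM.

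Diet called none of the 10 in aortas. The log2 fold changes of HFD against SFD ran from -0.57 (Birc5) to 0.17 (Mcm5) in WT, where 0.0132% of all genes were called, and from 0.03 (Mcm5) to 0.76 (Aurkb) in KO, where 0% were (690 genes at an unadjusted p under 0.05, 4 called by DESeq2). All 10 members had a positive estimate in KO and 4 of 10 in WT. Averaged over genotype they ran from -0.25 (Birc5) to 0.34 (Cdk1), with 0.0529% of all genes called. The interaction, which tests whether diet acted differently in KO and WT, ran from -0.13 (Mcm5) to 1.19 (Aurkb), positive for 9 of 10, with 0% of all genes called (127 at an unadjusted p under 0.05, 0 by DESeq2). KO against WT under SFD ran from -0.25 (Cdkn1a) to 0.26 (Top2a), with 0% called (345 at an unadjusted p under 0.05, 0 by DESeq2). These comparisons share libraries and the proliferation genes varied together, so neither the comparisons nor the members give signs that are independent of each other.

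**Figure D2:**
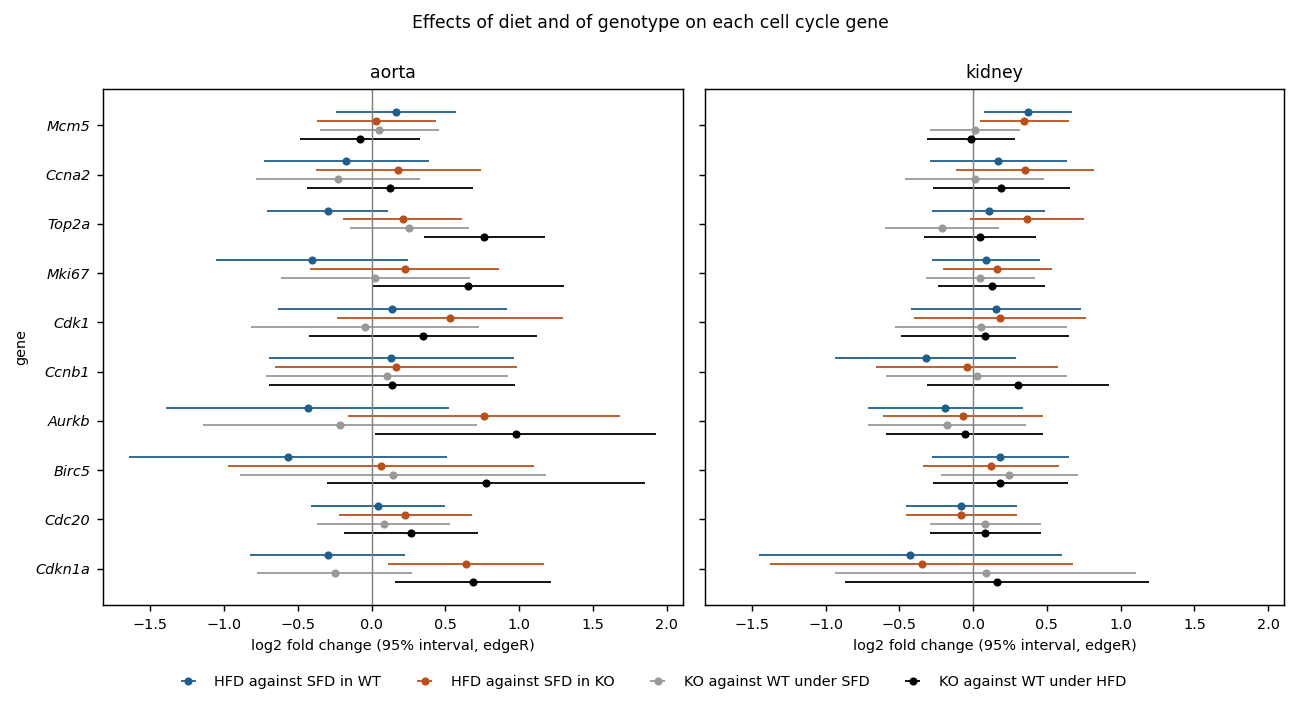
Log2 fold change (x axis) of each of the 10 genes (y axis) in aortas (left) and kidneys (right), with 95% intervals from the edgeR fit, for HFD against SFD in WT and in KO and for KO against WT under SFD and under HFD. In aortas the interval of KO against WT under HFD lies above 0 for Top2a, Mki67, Aurkb and Cdkn1a, and in kidneys both diet intervals lie above 0 for Mcm5; the intervals are not adjusted for the number of genes.

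Cdkn1a was the most abundant member and the only inhibitor of the cycle among the 10. In aortas it had 46.6, 49.1, 63.1, 56.9 and 55.8 FPM in WT SFD (R-1 to R-5), 41.9, 30.3, 46.9, 57.2 and 44.7 FPM in WT HFD (R-6 to R-10), 48.9, 46.7, 41.9, 45.3 and 45.8 FPM in KO SFD (R-11 to R-15) and 39.2, 52.2, 64.7, 145 and 55.0 FPM in KO HFD (R-16 to R-20). A single library, R-19, stood at 145 FPM, while the other 19 aortas lay between 30.3 and 64.7 FPM. The means were 54.3 ± 6.56, 44.2 ± 9.69, 45.7 ± 2.55 and 71.3 ± 42.4 FPM (SD, n = 5 each). The log2 fold change of KO against WT under HFD was 0.69 (SE 0.252, adjusted p = 0.654 by edgeR), that of HFD against SFD in KO was 0.64 (SE 0.252, adjusted p = 0.987), and the interaction was 0.94 (SE 0.356, adjusted p = 1). Without R-19 the difference between the genotypes under HFD was 0.27 (adjusted p = 0.915).

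R-19 was also the aorta with the highest level of immediate-early genes, transcripts such as Fos and Egr1 that rise within minutes of stimulation or tissue handling. Their 11 members, all tested, summed to 16977 FPM in R-19 and to between 615 and 7251 FPM in the other 19 aortas, where R-18, the second highest for both, had 7251 FPM and 64.7 FPM of Cdkn1a. By group the sums ran from 1631 to 16977 FPM in KO HFD, from 1724 to 3691 in KO SFD, from 1226 to 4306 in WT HFD and from 615 to 2970 in WT SFD. In kidneys Cdkn1a had 3.06, 22.1, 4.72, 9.36 and 6.58 FPM in WT SFD (a16 to a20, with a17 at 22.1), 6.23, 6.47, 8.46, 5.77 and 7.07 FPM in WT HFD (a11 to a15), 4.26, 4.87, 7.45, 25.4 and 6.37 FPM in KO SFD (a6 to a10, with a9 at 25.4) and 6.45, 6.52, 9.85, 9.64 and 5.65 FPM in KO HFD (a1 to a5). The other 18 kidneys lay between 3.06 and 9.85 FPM. The immediate-early genes summed to 2337 FPM in a9 and 2242 in a17, and also to 2594 in a8, where Cdkn1a was 7.45 FPM, against 147 to 268 FPM in the other 17 kidneys. The part of the immediate-early genes in the levels of Cdkn1a was not tested. Group means of Cdkn1a in kidneys were 9.16 ± 7.59 (WT SFD), 6.8 ± 1.04 (WT HFD), 9.67 ± 8.89 (KO SFD) and 7.62 ± 1.97 FPM (KO HFD), and the estimates for HFD were -0.43 in WT, -0.35 in KO and -0.39 averaged over genotype, none with an unadjusted p under 0.05. Their sign rested on a9 and a17: without a17 the estimate in WT was 0.20, without a9 that in KO was 0.41, and without a8, a9 and a17 the average was 0.38 (adjusted p = 0.208 by edgeR).

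**Figure D3:**
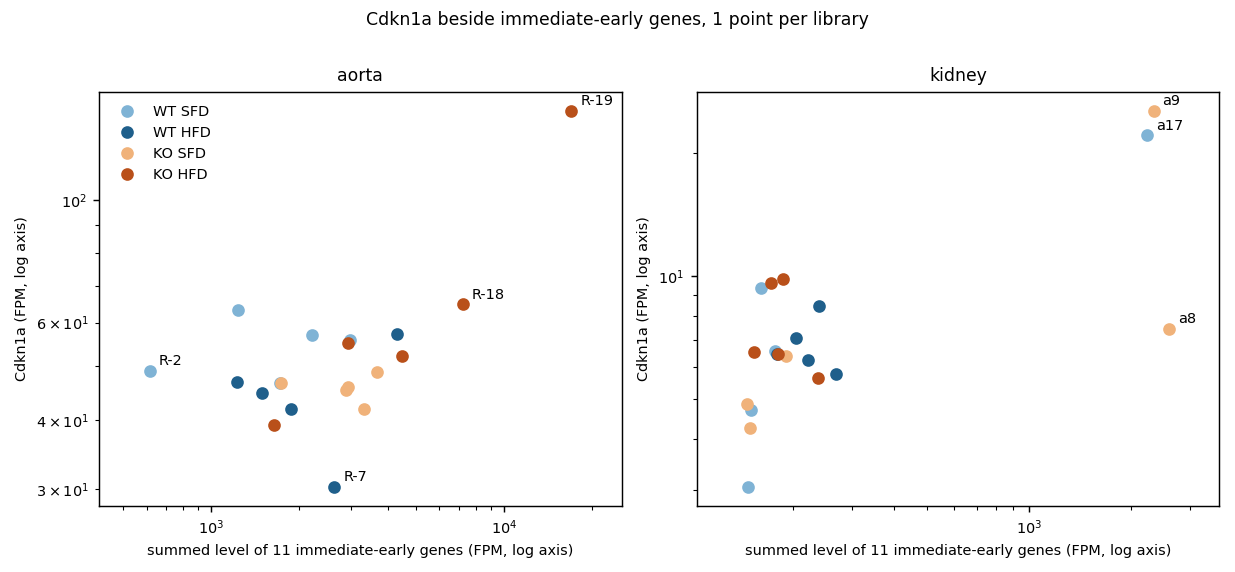
Cdkn1a (y axis, FPM, log axis) against the summed level of 11 immediate-early genes (x axis, FPM, log axis) in aortas (left) and kidneys (right), 1 point per library, coloured by group. R-19 lies at the top right in aortas (145 FPM against 16977 FPM), and a9 and a17 do so in kidneys, while a8 has high immediate-early genes (2594 FPM) and a Cdkn1a level of 7.45 FPM.

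The 9 proliferation genes varied together across libraries. Over the 20 aortas the Pearson correlation of log2 FPM was positive for all 36 pairs, from 0.06 (Top2a and Mcm5) to 0.81 (Ccnb1 and Cdc20) with a median of 0.42, and over the 20 kidneys it was positive for 31 of 36 pairs, from -0.23 (Aurkb and Mcm5) to 0.73 (Mki67 and Ccna2) with a median of 0.36. Without the near-identical libraries the medians were 0.41 and 0.36. Cdkn1a did not follow the others in aortas (-0.35 to 0.22 with the 9 genes) and did so partly in kidneys (-0.12 to 0.58). These values are a description over libraries that share depth and groups.

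R-16, a KO HFD aorta, was the highest of 20 for 7 of the 9 proliferation genes (Mki67, Top2a, Cdk1, Ccna2, Birc5, Aurkb and Cdc20) and among the 2 highest for all 9, with a mean z-score of 2.07. R-11, a KO SFD aorta, followed at 0.804, and R-14, also KO SFD, was lowest at -1.2. The T cell marker Cd3e is among the genes of chromosome 9 that hold 0 counts in every library, so its level could not be read. Lymphoid markers, of which 11 of 13 were tested, summed to 257 FPM in R-16 and 154 FPM in R-11 against 9.66 to 37.1 FPM in the other 18 aortas. By group they ran from 13.2 to 257 FPM in KO HFD (median 21.2), 16.4 to 154 in KO SFD (median 24.6), 9.66 to 37.1 in WT HFD (median 22.4) and 17.5 to 26.3 in WT SFD (median 22.9). The 5 macrophage markers, all tested, summed to 2166 FPM in R-16 and to between 214 and 538 FPM in the other 19 aortas: 333 to 2166 in KO HFD, 214 to 344 in WT HFD, 359 to 538 in KO SFD and 292 to 486 in WT SFD. Red blood cell transcripts were also highest in these aortas, at 80124 FPM in R-11 and 61110 FPM in R-16, against 417 to 44483 FPM elsewhere. The part of blood cells in the proliferation genes was not tested beyond the fits without these libraries and with the lymphoid score. Adipocyte markers in aortas summed to 71.8 to 341 FPM in WT SFD and 5.85 to 72.0 in WT HFD. In KO they summed to 30.1 to 145 FPM under SFD and 23.5 to 34.0 under HFD, and their part was not tested.

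**Figure D4:**
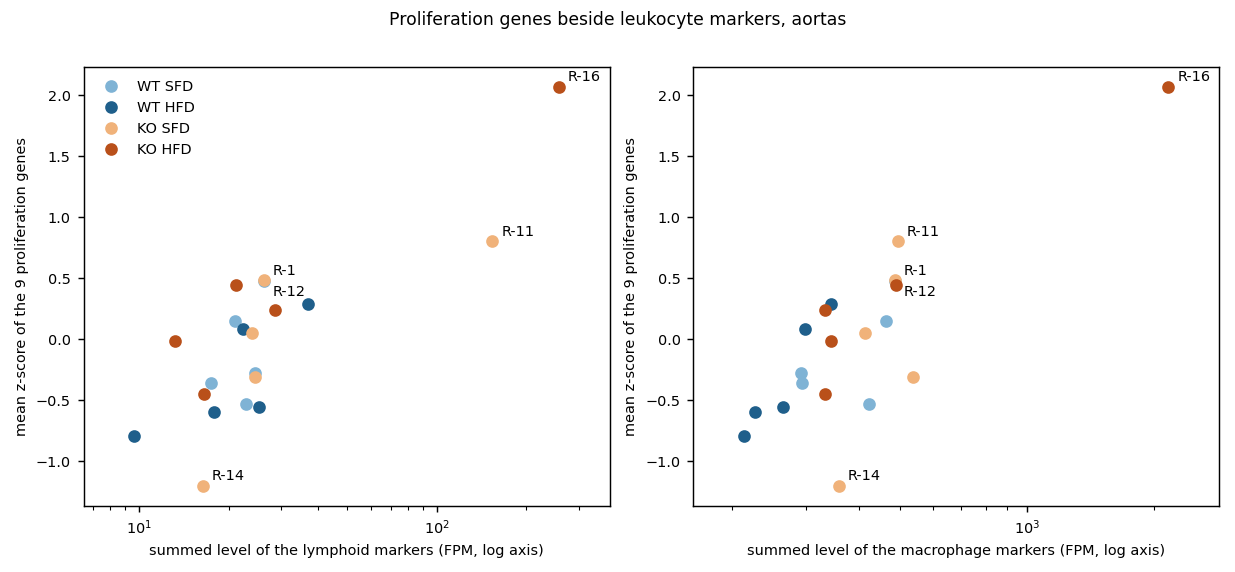
Mean z-score of the 9 proliferation genes (y axis) against the summed level of lymphoid markers (left) and macrophage markers (right; x axes in FPM, log axes) in the 20 aortas, 1 point per library, coloured by group. R-16 lies apart at the top right of both panels (z-score 2.07, 257 and 2166 FPM), R-11 follows for lymphoid markers (154 FPM), and the near-identical R-1 and R-12 coincide.

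The genes whose aortic levels were most like the mean z-score of the 9 were Gmfg (r = 0.90), Kcnab2 (0.89), Snx20 (0.89), Tyrobp (0.89) and Wfdc17 (0.89) over 20 libraries, of which Gmfg, Snx20 and Tyrobp are known from blood cells. Without R-16 and R-14, the libraries farthest from the median, the same correlations were 0.80, 0.77, 0.86, 0.78 and 0.74. In kidneys they were Inpp5d (0.82), Cd44 (0.82), Anxa1 (0.81), Itgb2 (0.80) and Col6a2 (0.78), and 0.67, 0.70, 0.65, 0.67 and 0.62 without a18 and a7. Kidney a18 (WT SFD) was the lowest of 20 for Mki67, Cdk1 and Ccna2, and its endothelial markers summed to 54.8 FPM (others 91.1 to 214) and its podocyte markers to 15.3 FPM (others 37.0 to 75.1). For Cdkn1a the most alike in aortas were Gm6225 (0.91), Pim1 (0.90), Nap1l5 (0.84), Gdf15 (0.83) and Ier5 (0.83), which came to between 0.38 and 0.67 without R-19 and R-7. In kidneys they were S1pr3 (0.92), Lilr4b (0.91), Adamts4 (0.90), Dusp8 (0.89) and Lif (0.89), and between 0.61 and 0.81 without a9 and a17. These genes were picked for their likeness among all genes tested, so the correlations carry no test.

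The wider cell cycle was read from lists of other genes, of which Ccnd1, Cdc25b, Cdk6, E2f5 and Rb1 share exon bases with a neighbour. In kidneys under HFD, averaged over genotype, 3 of 24 tested genes of replication licensing and S phase rose and none fell, with a median log2 fold change of 0.05 beside -0.00 over all genes. Of all genes 16.4% were called in this comparison, and 3 of 24 is not above that share. The 3 genes were Rrm1, the large subunit of ribonucleotide reductase (0.45, SE 0.0875, adjusted p = 0.00104), Tyms, thymidylate synthase (0.29, adjusted p = 0.00834), and Mcm3, a partner of Mcm5 in the helicase (0.34, adjusted p = 0.0421). Rrm1 rose from 12.5 ± 2.83 to 15.9 ± 1.32 FPM in WT and from 11.2 ± 0.727 to 16.6 ± 1.78 FPM in KO (SD, n = 5 each). Mcm3 was not called without a1 and a12 (0.30, adjusted p = 0.104) and lost its call in 16 of 30 alternatives. Tyms was not called without a8, a9 and a17, the SFD kidneys with high immediate-early genes (0.24, adjusted p = 0.0646).

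Of 30 tested genes of G2 and mitosis 3 rose and 3 fell, with a median of 0.22. Spc25, a subunit of the NDC80 kinetochore complex, rose most, by 1.03 on the log2 scale (SE 0.111, adjusted p = 1.79e-06), from 20.2 ± 6.28 to 35.7 ± 4.35 FPM in WT and from 16.9 ± 2.79 to 39.6 ± 4.18 FPM in KO. It was called within WT (0.83, adjusted p = 0.00225) and within KO (1.23, adjusted p = 5.02e-05). In aortas it was low, with 0.906 FPM in its highest library. In kidneys it stood well above Mki67, whose group means lay between 3.51 and 4.07 FPM. Of the other listed genes of that complex, Nuf2 and Ndc80 were not among those called. Spc24 is among the genes of chromosome 9 that hold 0 counts in every library, so its level could not be read. Cdc25b, a phosphatase that activates Cdk1 (0.41, adjusted p = 0.00192), and Mad2l1 of the spindle checkpoint (0.42, adjusted p = 0.0128) rose too. The motor protein Cenpe (-0.51, adjusted p = 0.021), the transcription factor Mybl2 (-0.31, adjusted p = 0.0343) and the cytokinesis factor Ect2 (-0.39, adjusted p = 0.036) fell. Without a1 and a12, Mybl2 (adjusted p = 0.0762) and Ect2 (adjusted p = 0.0537) were no longer called, and their calls were lost in 13 and 15 of 30 alternatives. Ect2 was not called without a8, a9 and a17 either (adjusted p = 0.0641). The list thus held changes in both directions, and 16.4% of all genes were called in this comparison.

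Among 17 tested G1 and RB-E2F genes, Ccnd1 (cyclin D1) fell by 0.36 on the log2 scale (adjusted p = 0.0154) and E2f5 fell by 0.13 (adjusted p = 0.0197), with a list median of -0.06. Without a1 and a12 the adjusted p of E2f5 was 0.0737, and without a8, a9 and a17 it was 0.0565 for E2f5 and 0.0821 for Ccnd1 (-0.28). Of 4 tested CDK inhibitors beside Cdkn1a, Cdkn2c (p18) rose by 0.42 (adjusted p = 0.00762), from 18.9 ± 2.82 to 22.7 ± 4.97 FPM in WT and from 16.3 ± 1.61 to 24.1 ± 4.71 FPM in KO. Of 4 tested cell cycle genes linked to the circadian clock, the checkpoint kinase Chek2 rose (0.36, adjusted p = 0.00221) and Ccnd1 fell, with a median of -0.16. These calls, averaged over genotype, stand beside 16.4% of all genes called in that comparison. Within WT the called genes of all lists were Spc25, Cdc25b (0.42, adjusted p = 0.0416), Ccng1 (-0.38, adjusted p = 0.00179), Perp (-0.32, adjusted p = 0.00456) and Aen (-0.49, adjusted p = 0.0106). Within KO they were Spc25, Cdc25b (0.41, adjusted p = 0.0481), Rrm1 (0.56, adjusted p = 0.00761), Cdkn2c (0.57, adjusted p = 0.0206), Chek2 (0.45, adjusted p = 0.0117), Ddit4 (-1.22, adjusted p = 0.00612), Plk2 (-1.10, adjusted p = 0.0349), Perp (-0.24, adjusted p = 0.0367) and Ccng1 (-0.25, adjusted p = 0.0387). The calls of Cdc25b within WT and within KO were lost in 16 and 21 of 31 alternatives, those of Perp, Ccng1 and Plk2 within KO in 18, 15 and 12. Without a1 and a12 the adjusted p of Cdc25b was 0.0609 in WT and 0.0929 in KO, and in KO it was 0.0827 for Plk2 and 0.0527 for Perp. Without a8, a9 and a17 only Spc25 and Rrm1 of the 9 were still called within KO, with Plk2 at -0.31 (adjusted p = 0.304) and Ddit4 at -0.66 (adjusted p = 0.0656), and Cdc25b was no longer called within WT (adjusted p = 0.0859). No difference between the genotypes was called for these genes, since 0 of all genes passed for the interaction.

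The p53 targets, the family to which Cdkn1a belongs, had 8 of 20 tested genes lower and 2 higher under HFD in kidneys, where 16.4% of all genes were called, and their median was -0.21 beside -0.00 over all genes. Ccng1 (-0.32, adjusted p = 0.000131), Perp (-0.28, adjusted p = 0.000265), Ddit4 (-1.03, adjusted p = 0.000504), Aen (-0.41, adjusted p = 0.00107) and Plk2 (-0.82, adjusted p = 0.0114) fell, as did Btg2 (-2.81, adjusted p = 0.0211), Gdf15 (-2.0, adjusted p = 0.0224) and Tnfrsf10b (-0.43, adjusted p = 0.0225). The sestrins Sesn2 (0.45, adjusted p = 0.0143) and Sesn1 (0.22, adjusted p = 0.0296) rose. Some of these falls rested on a8, a9 and a17, the SFD kidneys with high immediate-early genes. Btg2 had 279 FPM in a8, 474 in a9 and at most 409 FPM in WT SFD, where the WT SFD median was 16.5 and the HFD groups lay between 15.8 and 20.7 FPM. Without these 3 kidneys Btg2 was 0.25 (adjusted p = 0.0672), Gdf15 -0.14 (adjusted p = 0.643) and Tnfrsf10b -0.27 (adjusted p = 0.169), and Sesn1 was no longer called (adjusted p = 0.135). The other 5 falls were still called, with Plk2 at -0.37 and Ddit4 at -0.66. Without a1 and a12 the adjusted p was 0.0656 for Btg2, 0.0706 for Tnfrsf10b and 0.0726 for Sesn1.

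**Figure D5:**
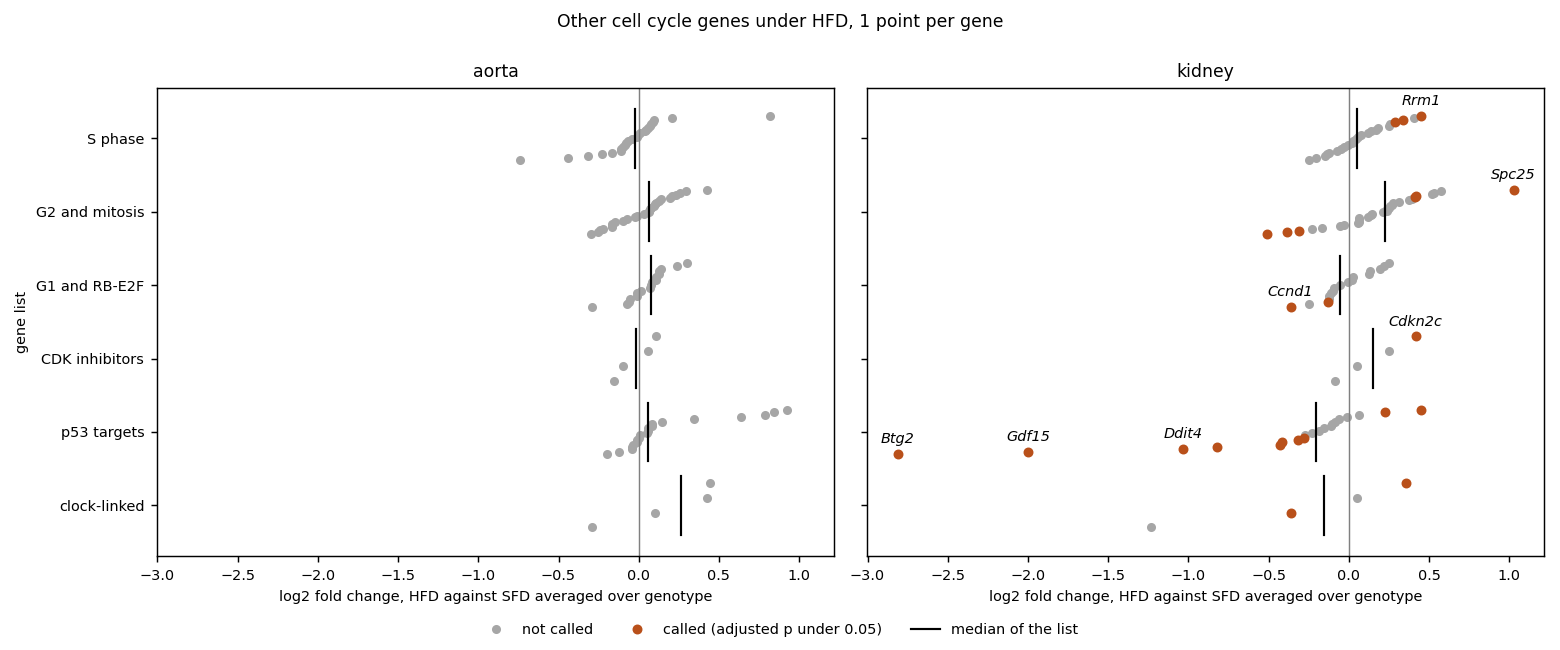
Log2 fold change of HFD against SFD averaged over genotype (x axis) for every tested gene of 6 lists (y axis) in aortas (left) and kidneys (right); coloured points were called at an adjusted p under 0.05 and black bars mark the median of each list. No point is coloured in aortas, while in kidneys Spc25 lies at 1.03 and the p53 targets Btg2, Gdf15 and Ddit4 lie between -2.81 and -1.03.

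In aortas no gene of these lists was called in any comparison of diet or genotype. The smallest unadjusted p-values per list belonged to Mcm6 (0.21, adjusted p = 0.476) and Mcm10 (-0.74, adjusted p = 0.598) for HFD averaged over genotype, and to Rrm2 (0.72, adjusted p = 0.654), Racgap1 (0.75, adjusted p = 0.643), Rb1 (0.33, adjusted p = 0.685), Pmaip1 (1.81, adjusted p = 0.59) and Myc (1.32, adjusted p = 0.306) for KO against WT under HFD. Myc, an immediate target of growth signals, had 7.23 ± 2.91 FPM in KO HFD against 2.89 ± 0.8 in WT HFD, while both SFD groups averaged 3.41 ± 0.76 (KO) and 3.31 ± 0.903 (WT; SD, n = 5 each), and DESeq2 called it (1.33, adjusted p = 0.00787). The summed immediate-early genes ran from 1631 to 16977 FPM in KO HFD and from 1226 to 4306 in WT HFD, and their part in the Myc level was not tested. For KO against WT averaged over diet the smallest unadjusted p-values were those of Plk2 (0.84, adjusted p = 0.294) and Rbl1 (0.31, adjusted p = 0.568). Ddit4 for HFD averaged over genotype (0.93, adjusted p = 0.349; called by DESeq2 at an adjusted p of 0.0397), Cdk6 for the interaction (-0.33, adjusted p = 1) and Wee1 for HFD in WT (0.88, adjusted p = 1) complete them. The log2 fold change of Ddit4 for HFD was thus above 0 in aortas and fell in kidneys, and that difference was not tested.

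Between the tissues the lists differed in direction as their single genes did, on a background of 86.5% called. S phase genes went both ways, with Mcm6 (1.32), Mcm4 (1.37), Mcm3 (1.28), Rrm1 (0.84), Prim1, Ccne2, Cdc6, Pcna and Orc1 higher in aortas and, among others, Mcm10 (-4.0), Tyms (-1.61), Gmnn, Mcm2, Tk1, Rrm2, Uhrf1, Mcm7 and Gins1 lower, and a median of 0.04. Thus Mcm3, Mcm4 and Mcm6 were higher in aortas, Mcm2 and Mcm7 lower, and Mcm5 did not pass, although the 6 form a single helicase. Of 30 tested genes of G2 and mitosis 14 were lower in aortas (Spc25 at -5.75, Cks2 at -3.68, Cenpe at -2.38, Ect2, Nusap1, Mybl2, Cdca8, Pbk, Kif11, Hmmr, Cenpf, Melk, Aurka and Racgap1) and 7 higher (Cdc25b at 1.91, Tpx2, Prc1, Bub1b, Mad2l1, Incenp and Pttg1), with a median of -0.29. In G1 the D cyclins parted, with Ccnd2 (4.18) and Ccnd3 higher in aortas and Ccnd1 (-2.85) lower. E2f6, Tfdp1 and Cdk2 were also higher, E2f2, E2f3, E2f5, Cdk6, Rbl1, Lin9 and Lin54 lower, and the list median was -0.16.

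Of the CDK inhibitors, Cdkn1b (0.99), Cdkn1c and Cdkn2b were higher in aortas, as Cdkn1a was, and Cdkn2c (-1.15) was lower, with a median of 0.65. Of 20 p53 targets 11 were higher in aortas (Fas at 3.09, Sesn1, Tnfrsf10b, Phlda3, Trp53inp1, Perp, Psrc1, Bbc3, Polk, Btg2 and Ddit4) and 7 lower (Pmaip1 at -5.0, Sesn2 at -3.75, Ccng1, Gdf15, Zmat3, Mdm2 and Aen), with a median of 0.41. All 4 tested clock-linked genes, Ccnd1, Wee1, Myc and Chek2, were lower in aortas, with a median of -1.07. The median over all genes between the tissues was -0.02.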

How the data were processed

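RNA from 20 aortas and 20 kidneys was selected for polyadenylated transcripts and sequenced as paired ends. The authors deposited counts: whole numbers of fragments per gene from featureCounts on mouse GRCm38/mm10, neither normalised nor filtered; the submitters' processing notes name HISAT2 2.1.0 for mapping, while the methods name TopHat2. Strand setting, sex and time of collection are not given in the sources used here. Genes on distal chromosome 8 and on chromosomes 9, MT, X and Y (7724 in aortas, 7729 in kidneys) hold 0 counts in every library and were not tested.

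Genotype, diet and tissue as labelled set the groups. The 20 libraries of a tissue entered a single quasi-likelihood model (edgeR 4.0.16, robust, under R 4.3.3) after filterByExpr and TMM scaling, and p-values were adjusted after Benjamini and Hochberg over all genes tested (15122 in aortas, 15943 in kidneys; biological coefficients of variation 28.95% and 22.31%). Contrasts were HFD against SFD within and averaged over genotype, KO against WT within and averaged over diet, their interaction, and, in a joint fit of the genes of both tables, aorta against kidney. FPM are TMM-scaled CPM computed from the counts. Correlations used log2 FPM with a pseudocount of 0.5. The fits were tested on simulated counts. With 5 mice per group and few reads for the proliferation genes, only differences well above the spread between mice could be called; nothing states that each library is a separate extraction, so p-values measure the spread between these libraries.

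All 10 members are named; a fold change with its error is given where the unadjusted p was under 0.05 and for all 10 between tissues, and the others by range. Of each gene list the called genes are named, or, where none was called, the 3 with the smallest unadjusted p under 0.05; for the aorta against kidney comparison values are printed for some of the called genes only. Genes most like the members are the 5 with the highest Pearson correlation. Marker lists are given as summed FPM. The members and lists were chosen with earlier results of these data known. Alternatives were DESeq2 1.42.0 size factors and Wald test, other filters and thresholds, a fit without robust estimation, fits of the compared groups alone, covariates for lymphoid, immediate-early and clock scores, and leaving out single libraries, both near-identical libraries, R-11 and R-16, or a8, a9 and a17. Leaving out R-16 and R-19 was added after the data were seen. Exon overlaps were read from the GENCODE annotation of GRCm38.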

Additional observations from a re-analysis of the deposited data

Results flagged for a closer look

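In 8 of the 80 groups of 5 libraries (10 genes, 4 groups, 2 tissues) the highest or lowest library stood apart from the others, with a gap to its neighbour of more than 0.71 of the group's range (Dixon's 95% critical value), where chance gives about 1 in 20 groups, or 4. In aortas these were Top2a at 1.29 FPM in R-10, the lowest WT HFD library, and Top2a at 3.49 FPM in R-1, the highest WT SFD library and a member of the near-identical pair. Aurkb stood at 0.264 FPM in R-3, the lowest WT SFD library. Cdc20 stood at 4.21 FPM in R-16, the highest KO HFD library, and at 1.79 FPM in R-14, the lowest KO SFD library. Cdkn1a stood at 145 FPM in R-19 (KO HFD). In kidneys Mki67 stood at 3.05 FPM in a2, the lowest KO HFD library, and Cdkn1a at 25.4 FPM in a9 (KO SFD), where the immediate-early genes were high as well.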

How the results depend on the processing

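Over 13 fold changes of members within a tissue and 397 combinations with an alternative, 387 kept their direction and their side of the threshold. Uncalled estimates of Cdkn1a for HFD in kidneys turned sign without a8, a9 and a17 (from -0.43 to 0.20 in WT, from -0.35 to 0.57 in KO and from -0.39 to 0.38 averaged) and with the immediate-early score (0.55 in KO, 0.22 averaged), and without single libraries they ranged from -0.65 to 0.20 in WT and from -0.54 to 0.41 in KO. The calls that changed were those of Mcm5 in kidneys averaged over genotype (not called without a1 and a12, nor with a fold change over 1.5 and 5 FPM required, which its size cannot meet) and Mcm5 in WT kidneys (called without a15). Thus the number of members called for HFD averaged over genotype in kidneys, 1, was 0 under those 2 settings and 1 in each fit without a library, and in WT kidneys it ranged from 0 to 1. Between tissues 39 of 40 combinations kept their side, Top2a in the SFD groups alone being the exception. Of 37 called fold changes of list genes in kidneys, 5 kept the call under every alternative (Spc25 in all 3 comparisons, Plk2 and Ddit4 averaged over genotype), 26 without a1 and a12 and 21 without a8, a9 and a17, and Btg2 in kidneys turned from -2.81 to 0.25 without a8, a9 and a17. Added after seeing the data, the fit without R-16 and R-19 left Cdkn1a at 0.39 (adjusted p = 0.605) and Aurkb at 0.17 (adjusted p = 0.856) for KO against WT under HFD in aortas; Pmaip1 fell to 0.59 and Myc to 0.90.

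The number of all genes called moved more. For HFD in WT aortas (2 genes) it was 9 by DESeq2, 1 without a filter, 0 with at least 1 CPM in 5 libraries, 1 with the fold and level thresholds, 0 in a fit of the compared groups, and 0 to 3 without single libraries. For HFD in KO aortas (0) it was 4 by DESeq2. For KO against WT aortas under HFD (0) it was 25 by DESeq2, 21 without R-1 and R-12, 1 with the lymphoid score, and 0 to 2 without single libraries. For HFD averaged over genotype in aortas (8) it was 51 by DESeq2, 3 without a filter, 4 with the fold and level thresholds, 1 without R-1 and R-12, 3 without R-11 and R-16, 3 without R-16 and R-19, and 1 to 9 without single libraries. For KO against WT averaged over diet in aortas (3) it was 45 by DESeq2, 131 without R-1 and R-12, 25 with the lymphoid score, 0 without R-11 and R-16, 0 without R-16 and R-19, and 0 to 123 without single libraries, the highest without R-12. In kidneys, HFD called 1069 genes in WT (347 with the fold and level thresholds, 607 in a fit of the compared groups, 722 to 1121 without single libraries), 1011 in KO (344, and 582 without a8, a9 and a17; 757 to 1123) and 2615 averaged over genotype (466; 2275 to 2664); KO against WT averaged over diet gave 0, and 1 by DESeq2. The cause was not tested for those beyond fewer libraries or stricter thresholds. No paired analysis was possible because the groups share no replicate numbers. Depth limits the proliferation genes in aortas, where 19 of 180 values rest on under 10 reads.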
